A study of Mus musculus with 36 samples.

Results

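Messenger RNA of 9 genes of liver glycogen metabolism is described here in 36 mouse livers: the PPP1R3 targeting subunits Ppp1r3b, Ppp1r3c, Ppp1r3d and Ppp1r3g, the synthesis enzymes Gys2, Gbe1 and Ugp2, and Pygl and Phka2 of glycogen breakdown. They are the non-control probes that carry these symbols on an Agilent single-colour array, 14 probes of 56605 and 9 genes of 37325. Gbe1 had 3 probes, Phka2 had 4 and the others 1 each. All 9 genes passed the filter on dim probes, as 24251 genes did in all, and all 14 probes were well above background on all 36 arrays. The list was chosen by pathway role and selected on earlier log2 values of these arrays, in which Ppp1r3g stood out between AAKO and CTRL livers after a fast. Every value of Ppp1r3g that involves fasted arrays is therefore given as a description, without a test, and p-values of the other genes do not account for the choice of the list.

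The mice were males on the C57Bl/6J background with 1 array per liver and 6 arrays in each of 6 groups. AAKO mice lacked the triglyceride lipase ATGL (gene Pnpla2) in their white fat and CTRL mice were the controls; no promoter or Cre driver is named in the labels. Mice of each genotype were fed ad libitum, fasted for 24 h, or fed and dosed once by gavage at Zeitgeber time 10 with 3 mg/kg CL316243, which activates the beta 3 adrenergic receptors of fat cells. The vehicle was carboxymethyl cellulose in water, and every animal was killed at Zeitgeber time 16, whatever its group. The fed groups came from experiment 2 and the fasted and CL316243 groups from experiment 1, so any difference from the fed groups cannot be told apart from a difference between experiments. Genotype differences within a condition, and fasting against CL316243, lay within 1 experiment, but a gavage is recorded for the CL316243 groups alone. Both wash batches of the arrays held every group. No label says that animals of a group came from separate litters or cages, and p-values measure the spread between these animals.

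Hepatocytes store glucose as glycogen after a meal and release it in the fast. Glycogen synthase, of which Gys2 is the liver form, lengthens the chains from UDP-glucose made by Ugp2, and the branching enzyme Gbe1 adds branches; glycogen phosphorylase, of which Pygl is the liver form, removes glucose units once phosphorylase kinase, whose liver alpha subunit is Phka2, has activated it. The PPP1R3 proteins bind glycogen and bring protein phosphatase 1 to it, where the phosphatase activates the synthase and inactivates the phosphorylase.

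The genes lay on different chromosomes. In the mm9 coordinates of the array annotation the Ppp1r3g probe lay at chr13:36061999-36062058, the Ppp1r3b probe at chr8:36451115-36451174, the Gys2 probe at chr6:142371157-142371216 and the Pygl probe at chr12:71291855-71291914. Promoter windows, the 250 bases before a transcript start, were read from RefSeq on GRCm38.p6 for 7 of the 9 members, all but Ppp1r3b and Gys2. The 4 windows below belong to Ppp1r3g (chr13:35967656-35967905, plus strand), the gene with the widest range of levels here, to Gbe1 (chr16:70313699-70313948, plus strand) and Pygl (chr12:70227684-70227933, minus strand), which moved together, and to Ppp1r3c (chr19:36736605-36736854, minus strand), whose window held an E-box. Each is written 5′ to 3′ on the strand of its gene, and capitals mark a motif match.
Ppp1r3g: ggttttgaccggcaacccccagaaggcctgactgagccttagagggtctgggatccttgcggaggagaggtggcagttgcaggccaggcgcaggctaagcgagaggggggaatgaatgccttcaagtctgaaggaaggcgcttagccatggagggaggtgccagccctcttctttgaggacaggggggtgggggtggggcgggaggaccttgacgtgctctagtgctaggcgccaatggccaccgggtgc
Gbe1: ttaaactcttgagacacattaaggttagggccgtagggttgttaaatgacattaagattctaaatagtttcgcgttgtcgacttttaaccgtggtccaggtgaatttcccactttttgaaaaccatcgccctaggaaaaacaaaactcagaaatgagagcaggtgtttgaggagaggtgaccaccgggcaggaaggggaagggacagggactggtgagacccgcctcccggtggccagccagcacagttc
Pygl: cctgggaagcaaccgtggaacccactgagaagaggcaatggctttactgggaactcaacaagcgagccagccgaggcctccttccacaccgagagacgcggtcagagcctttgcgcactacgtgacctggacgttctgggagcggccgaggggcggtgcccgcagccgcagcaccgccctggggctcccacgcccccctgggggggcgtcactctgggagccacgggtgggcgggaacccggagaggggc
Ppp1r3c: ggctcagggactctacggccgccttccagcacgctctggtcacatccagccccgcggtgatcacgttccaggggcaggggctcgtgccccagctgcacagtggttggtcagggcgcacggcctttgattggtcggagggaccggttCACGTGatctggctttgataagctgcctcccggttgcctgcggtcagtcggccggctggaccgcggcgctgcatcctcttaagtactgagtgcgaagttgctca
Of 5 motifs looked for on both strands, the E-box CACGTG was found 104 bases before the start of Ppp1r3c and 226 bases before that of Ppp1r3d, and 6.02% of all 32851 windows held it. The glucocorticoid receptor hexamer TGTTCT was found in the Phka2 window, 153 bases before the start, and 16.1% of all windows held it. The cAMP response element TGACGTCA, the forkhead motif GTAAACA and the direct repeat bound by PPAR (AGGTCA repeated after 1 free base) were in none of the members' windows, and 1.55%, 3.17% and 0.0335% of all windows held them. The motif letters did not overlap in any member's window.

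All 7 hepatocyte markers looked at were above background on every array of every group, and arrays had 33128 to 37200 probes above their background. The liver arrays do not check the knockout, which is in fat: Pnpla2 in liver ran from 3.50 to 4.58 over the 12 fed arrays and from 7.12 to 7.48 in fasted AAKO livers. CL316243-treated AAKO replicate 6 carried skeletal muscle markers, with a summed log2 level of 6 muscle markers of 7.48 against -1.04 to -0.45 on the other 35 arrays; Ckm and Myh1 were above background on this array alone. Results of that group are given without it where they change. Fasted CTRL replicate 2 stood apart from its group, and its effect is given beside the results it touches. The summed level of 6 neutrophil markers ran from 3.16 to 6.97 in fasted AAKO livers, and was 6.32 in fasted CTRL replicate 2 and -0.72 to 3.51 in the other fasted CTRL livers. The neutrophil granule gene Ngp was above background on all 6 fasted AAKO arrays and on 2 of 6 fasted CTRL arrays; the part of these markers in the fasted results was not tested. The summed level of 6 stellate cell markers was 6.59 to 6.92 in fasted CTRL and 6.93 to 7.33 in fasted AAKO livers, without overlap. Dcn and Reln were called higher by 0.45 and 0.51, while Lrat, Des and Pdgfrb gave -0.31, -0.25 and -0.19 and Colec11 0.13, none called. Dcn, with a mean of 6.84 in fasted AAKO livers against 3.84 for Colec11, makes up most of this sum, which is thus no measure of the 6 markers alike. The sum was 6.20 to 6.63 in all 12 fed livers and 5.57 to 6.36 after CL316243. On fasting the stellate markers did not share a direction. Lrat was called lower, by 0.90 in CTRL and 1.42 in AAKO livers, and Dcn was called higher, by 0.36 and 0.73. Pdgfrb was also called higher in CTRL livers, by 0.37, and Reln in AAKO livers, by 0.48. Of endothelial markers, whose sums overlapped between fasted genotypes, Lyve1 and Stab2 were called higher by 1.83 and 0.32 in fasted AAKO livers. Kdr gave -0.15 there and was not called. Of cholangiocyte markers, whose sums overlapped too, Sox9 and Krt19 were called lower by 0.89 and 0.75, while Spp1 gave 0.31 and was not called. After CL316243 the endothelial sums, 4.61 to 5.75, lay below those of the fed livers, 5.58 to 6.16, within each genotype. The Kupffer cell marker Adgre1 was called lower on fasting by 1.19 in CTRL and 1.55 in AAKO livers, and by 1.11 and 1.47 after CL316243. The part of these cells in any member's difference was not tested either. In bulk liver, fewer cells of a type and less RNA per cell cannot be told apart.

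Ppp1r3g encodes a liver subunit that brings the phosphatase to glycogen after feeding. Levels are log2 signals with the array's own 75th percentile set to 0. In fed livers Ppp1r3g ran from -3.64 to -1.31 (median -2.17) in CTRL and from -3.78 to 1.62 (median 0.06) in AAKO mice. In fasted livers it ran from -1.46 to 3.07 (median -0.40) in CTRL and from 5.13 to 6.99 (median 5.79) in AAKO mice. Every fasted AAKO liver therefore lay above every other liver of the study, while the ranges of the fed groups and of the fasted CTRL group overlapped. After CL316243 the gene ran from -1.27 to 1.44 (median 0.14) in CTRL and from -1.22 to 4.55 (median 1.55) in AAKO mice, which again overlapped.

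The group means of Ppp1r3g rose in the order CTRL fed (-2.29 ± 0.94, SD, n = 6), AAKO fed (-0.46 ± 2.15), CTRL fasted (0.01 ± 1.61), CTRL CL316243 (0.07 ± 1.17), AAKO CL316243 (1.35 ± 2.20) and AAKO fasted (5.95 ± 0.62). Each neighbouring pair in that order overlapped except the last. The SD was above 1 in 4 groups, all but fed CTRL and fasted AAKO, so animals of most groups were scattered over several fold. The fitted fasted genotype difference was 5.94 ± 0.88 (SE), 61.2-fold, and fasted CTRL replicate 2, at 3.07, was the highest fasted CTRL liver; without it the difference was 6.60. Within wash batches 1 and 2 it was 6.69 and 5.18. In AAKO livers the fasted level lay 6.41 ± 0.88 above the fed level (85.3-fold) and 4.66 ± 0.88 above the CL316243 level (25.2-fold), with no overlap in either comparison. Groups lay apart in the same direction for 9.74% of all genes tested between fasted genotypes, and for 18.8% and 16.3% in those comparisons of fasted AAKO livers.

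**Figure D1:**
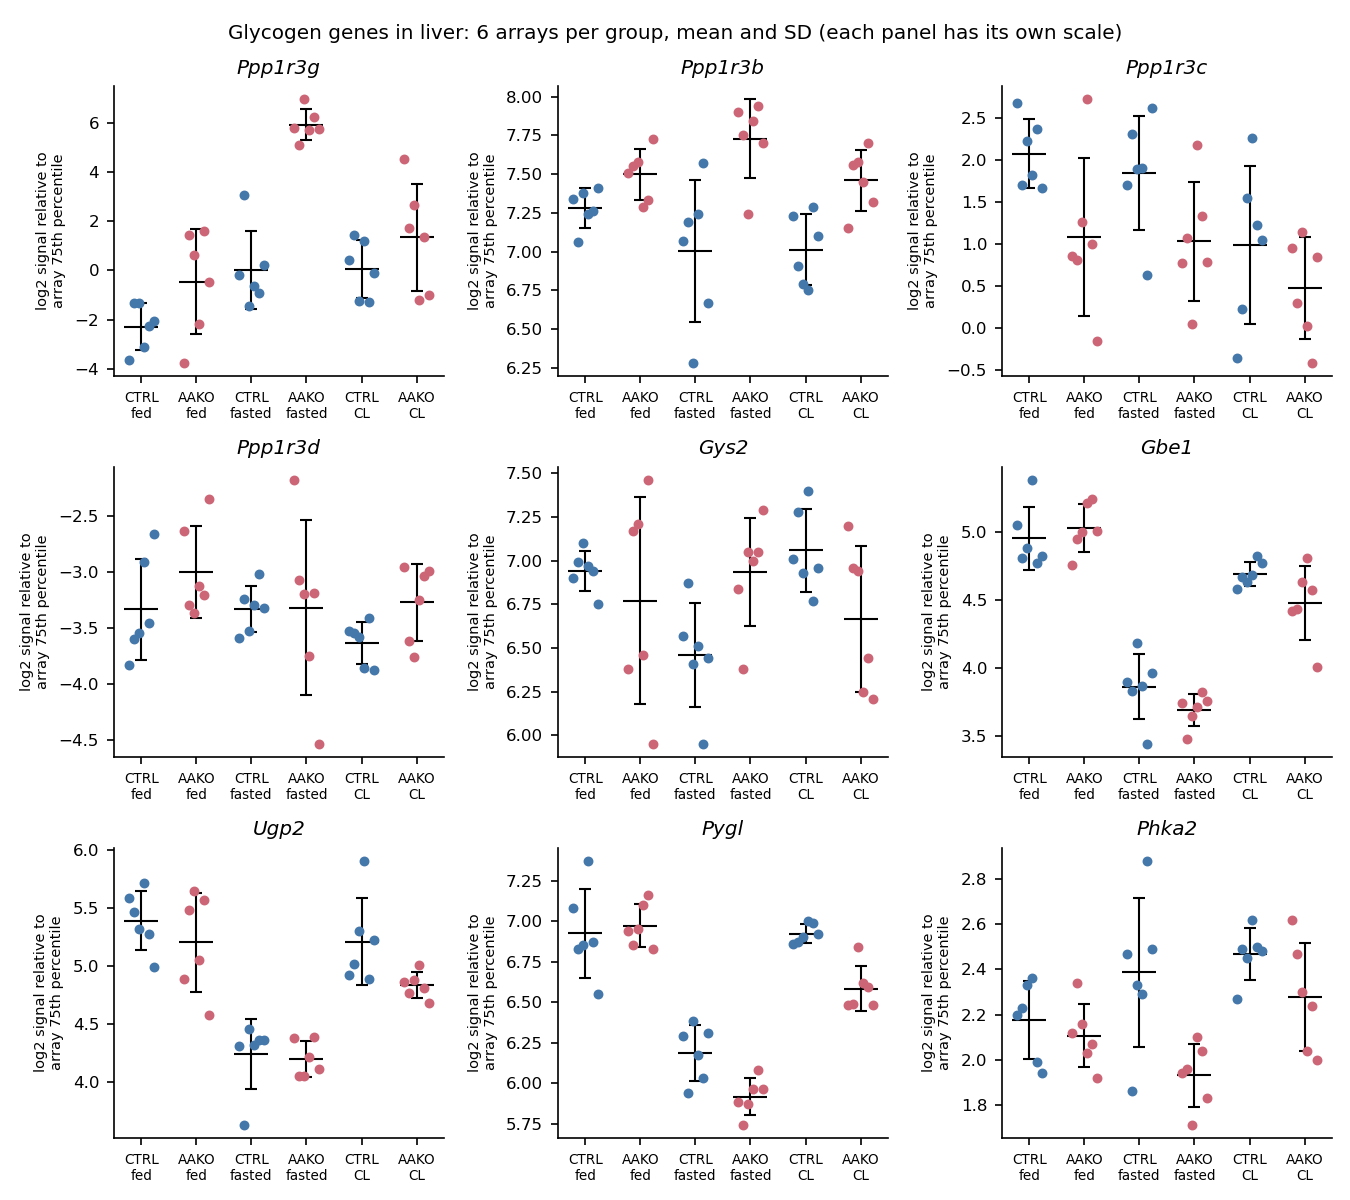
Levels of the 9 genes on every array: each point is 1 liver (blue CTRL, red AAKO), the bar and whiskers are the mean and SD of 6, and the y axis is the log2 level with the array's 75th percentile at 0, on a scale of its own in each panel. Fasted AAKO livers sit between 5.13 and 6.99 for Ppp1r3g, above all others, and Gbe1, Ugp2 and Pygl are lower in both fasted groups than in the fed groups.

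Only the comparisons of Ppp1r3g without fasted arrays were tested. CTRL livers after CL316243 lay above all fed CTRL livers, as for 5.70% of all genes, by 2.35 ± 0.88 (5.11-fold), but the limma adjusted p was 0.0505, which did not pass. The adjusted p was 0.0433 without CTRL CL316243 replicate 3, 0.0383 without replicate 5, 0.0489 with no wash batch, 0.0494 with every probe tested separately and 0.00888 with only the groups compared. The other 10 of the 12 fits that each left out 1 array did not pass, with adjusted p up to 0.113, nor did the replicate block (0.0519). The AAKO rise after CL316243 was 1.76 ± 0.88 (adjusted p 0.134 by limma), and the genotype difference was 1.82 ± 0.88 in fed livers (adjusted p 0.730) and 1.23 ± 0.88 after CL316243 (adjusted p 0.339). None of these passed. With each array left out in turn, the AAKO rise ran from 1.14 (without fed AAKO replicate 1) to 2.30 (without AAKO CL316243 replicate 4), and the genotype difference after CL316243 from 0.62 (without AAKO CL316243 replicate 1) to 1.77 (without replicate 4), and none of these fits passed (adjusted p 0.0556 to 0.350 and 0.172 to 0.653). Without replicate 6, the array with muscle markers, they were 2.24 and 1.71. The genotype by CL316243 interaction was -0.60 ± 1.25 (adjusted p 0.844).

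Ppp1r3b, the glycogen-targeting subunit usually called GL in liver, was the targeting subunit whose genotype differences passed the test; the fasted difference of Ppp1r3g was not tested. It ran from 6.28 to 7.57 (median 7.13) in fasted CTRL livers and from 7.24 to 7.94 (median 7.79) in fasted AAKO livers. After CL316243 it ran from 6.75 to 7.29 (median 7.01) in CTRL and from 7.15 to 7.70 (median 7.51) in AAKO mice. AAKO livers were higher in both conditions with some overlap. The rise in AAKO livers was 0.73 ± 0.14 when fasted (1.65-fold, adjusted p 6.06e-05 by limma) and 0.48 ± 0.14 after CL316243 (1.39-fold, adjusted p 0.0113). It was 0.73 in each wash batch when fasted, and after CL316243 it was 0.45 (adjusted p 0.256) and 0.47 (adjusted p 0.0391) in wash batches 1 and 2.

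In fed livers Ppp1r3b ran from 7.06 to 7.41 (median 7.30) in CTRL and from 7.29 to 7.73 (median 7.53) in AAKO mice, a difference of 0.22 ± 0.14 that did not pass (adjusted p 0.813 by limma). The genotype by fasting interaction was 0.51 ± 0.20 (adjusted p 0.0443). That call was narrow: it was lost in 16 of the 24 fits that each left out 1 array, with adjusted p up to 0.101, and held only without fasted AAKO replicate 3, fed AAKO replicates 3 or 6, fasted CTRL replicates 2, 4 or 5, or fed CTRL replicates 2 or 5. It was also lost with no filter on dim probes (adjusted p 0.0708), no wash batch (0.0604), only the groups compared (0.0596), and in wash batches 1 (0.326) and 2 (0.0636) alone. Fasting itself moved the gene by -0.28 ± 0.14 in CTRL and 0.23 ± 0.14 in AAKO livers, and CL316243 by -0.27 ± 0.14 and -0.01 ± 0.14, and none of the 4 passed. The fasting difference in CTRL livers passed without fasted CTRL replicate 5 (-0.42, adjusted p 0.00677), and that in AAKO livers passed with the deposited log2 values (0.38, adjusted p 0.0146), quantile normalization (0.37, adjusted p 0.0167) or wash batch 2 alone (0.30, adjusted p 0.0373). Fasted against CL316243-treated AAKO livers gave 0.24 ± 0.14 (adjusted p 0.145), which passed with the deposited values (0.39, adjusted p 0.0125), normexp (0.29, adjusted p 0.0494), quantile normalization (0.34, adjusted p 0.0268) or wash batch 2 alone (0.38, adjusted p 0.0224).

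Ppp1r3c, the widely expressed subunit also called protein targeting to glycogen, varied widely between animals. Its SD within groups was 0.42 to 0.94, and its group means ran from 0.47 to 2.08. Fed CTRL livers ran from 1.67 to 2.69 (median 2.03) and fed AAKO livers from -0.16 to 2.73 (median 0.93). Replicate 4 of the fed AAKO livers, at 2.73, lay above all fed CTRL livers and the other fed AAKO livers below all of them. The AAKO means were lower in each condition, by 1.00 ± 0.42 when fed, 0.82 ± 0.42 when fasted and 0.52 ± 0.42 after CL316243, and limma passed none (adjusted p 0.676, 0.108 and 0.402). The fasted difference passed without fasted AAKO replicate 4 (adjusted p 0.0400) or fasted CTRL replicate 5 (adjusted p 0.0365). In CTRL livers CL316243 was lower than fed by 1.09 ± 0.42 (adjusted p 0.0581), and it passed without CTRL CL316243 replicate 3 (adjusted p 0.0485) or replicate 4 (adjusted p 0.0212). Fasted CTRL livers were higher than those by 0.85 ± 0.42 (adjusted p 0.111), which passed without fasted CTRL replicate 5 (adjusted p 0.0370) or CTRL CL316243 replicate 4 (adjusted p 0.0374).

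Ppp1r3d, a further member of the subunit family, gave group means between -3.64 and -3.00 and passed no contrast. Its fasted AAKO livers ran from -4.54 to -2.18 (median -3.19), and its fasted CTRL livers from -3.59 to -3.02 (median -3.31). Its differences ran from -0.32 to 0.38 over the 9 comparisons of groups, each with an SE of 0.25. The drop of 0.32 on fasting in AAKO livers passed only when fasted AAKO replicate 1, at -2.18, was left out (adjusted p 0.0410 by limma).

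Gys2, the liver glycogen synthase, had its lowest mean in fasted CTRL livers. Its levels there ran from 5.95 to 6.87 (median 6.48), and in fasted AAKO livers from 6.38 to 7.29 (median 7.02). After CL316243 they ran from 6.77 to 7.40 (median 6.98) in CTRL and from 6.21 to 7.20 (median 6.69) in AAKO mice. AAKO livers thus had the higher median when fasted and the lower after CL316243, with overlap in both. The AAKO difference was 0.48 ± 0.20 when fasted (adjusted p 0.0532 by limma) and -0.41 ± 0.21 after CL316243 (adjusted p 0.154), and neither passed. The fasted value lay at the threshold: it passed with the deposited log2 values (adjusted p 0.0276), normexp background correction (0.0450), quantile normalization (0.0337) or only the groups compared (0.0307), and without fasted AAKO replicate 2 (0.0163) or fasted CTRL replicate 2 (0.0236). The test of the difference between the 2 conditions did pass: the fasted genotype difference exceeded that after CL316243 by 0.88 ± 0.29 (adjusted p 0.0190). That difference was 1.08 in wash batch 1 (adjusted p 0.0793) and 0.69 in wash batch 2 (adjusted p 0.245), so neither batch alone passed, and it was 0.79 without the array with muscle markers (adjusted p 0.0374).

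In CTRL livers Gys2 was lower after fasting than after CL316243 by 0.60 ± 0.20 (adjusted p 0.0204 by limma), which did not pass without fasted CTRL replicate 5 (adjusted p 0.0657) or CTRL CL316243 replicate 4 (adjusted p 0.0514), nor in wash batch 1 (-0.88, adjusted p 0.0540) or wash batch 2 (-0.32, adjusted p 0.391) alone. Fasting against feeding gave -0.48 ± 0.20 in CTRL livers (adjusted p 0.0554). Without fasted CTRL replicate 2 this was -0.58 and passed (adjusted p 0.0277), as it did with only the groups compared (adjusted p 0.0118). The genotype by fasting interaction was 0.64 ± 0.29 (adjusted p 0.0850), and it passed without fasted AAKO replicate 2 (adjusted p 0.0360), fed AAKO replicate 5 (adjusted p 0.0326) or fasted CTRL replicate 2 (adjusted p 0.0440), and with the deposited values (adjusted p 0.0497). Fed AAKO replicates 1 to 6 had Gys2 at 6.38, 7.17, 7.21, 6.46, 7.46 and 5.95, a wider range than fed CTRL livers at 6.75 to 7.10. The neutrophil marker sums of the same livers were 3.98, 0.37, 0.47, 1.82, 0.19 and 5.56, and their part in that range was not tested. Other groups did not all share this order. Fasted CTRL replicate 2 had the highest sum of its group, 6.32, and the highest Gys2, 6.87. Fasted AAKO replicate 6 had the lowest sum of its group, 3.16, and the highest Gys2, 7.29.

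**Figure D2:**
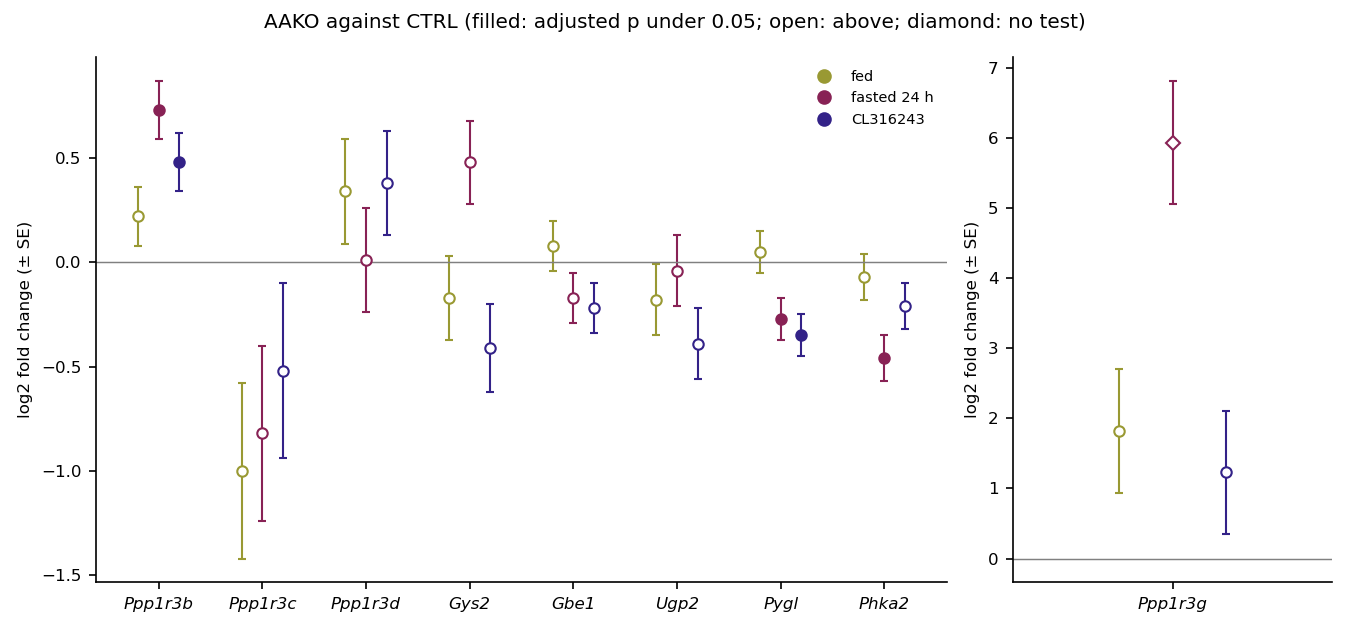
AAKO against CTRL in each condition: points are log2 fold changes with their SE for 8 genes (left) and for Ppp1r3g on its own axis (right), and filled points passed an adjusted p of 0.05. Ppp1r3b and Pygl are filled when fasted and after CL316243 and Phka2 when fasted, while no fed point is filled; the fasted Ppp1r3g value of 5.94, a diamond, was not tested.

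Across the members, fed livers gave no call between genotypes: limma called 0 of 9, against 0.0783% of all genes tested, although 2 of the 9 had an unadjusted p under 0.05. The median log2 difference of the 9 was 0.05, and that of all genes 0.00. The 9 members' medians were -0.04 when fasted and -0.22 after CL316243, against -0.03 and 0.03 for all genes. When fasted, 1 of 8 tested members was higher in AAKO livers (Ppp1r3b) and 2 were lower (Phka2 and Pygl), where 49.2% of all genes were called, 22.0% higher and 27.2% lower. After CL316243, Ppp1r3b was higher and Pygl lower, 2 of 9, where 24.5% of all genes were called, 12.9% higher and 11.6% lower. The members' shares were thus near or below those of all genes. Of the interactions, limma called 1 of 8 for fasting (Ppp1r3b, higher), where 33.6% of all genes were called and 15.1% were higher; 0 of 9 for CL316243, where 10.8% were called and 1 member had an unadjusted p under 0.05; and 1 of 8 for fasting against CL316243 (Gys2, higher), where 31.8% were called and 13.4% were higher.

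Without fasted CTRL replicate 2, the fasting interaction was called for 4 of 8 members: Ppp1r3b again, Gys2 at 0.74 (adjusted p 0.0440 by limma), Phka2 at -0.49 (adjusted p 0.00919) and Pygl at -0.36 (adjusted p 0.0340). That was the highest count over the 24 fits that each left out 1 array, which ran from 0 to 4. The share of all genes called without this liver was not computed, and the liver was singled out after its values were seen. Without the same liver the fasted genotype difference of Gys2 also passed, at 0.57 (adjusted p 0.0236). This liver was the lowest of its group for Pygl and Phka2, at 5.94 and 1.86, and the highest for Gys2, at 6.87, on the side of the fasted AAKO livers in each.

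Gbe1, the branching enzyme, and Ugp2, which makes UDP-glucose, were lower after the fast in both genotypes. Gbe1 ran from 4.77 to 5.38 (median 4.85) in fed CTRL and from 3.44 to 4.18 (median 3.89) in fasted CTRL livers. It ran from 4.76 to 5.24 (median 5.00) in fed AAKO and from 3.48 to 3.82 (median 3.73) in fasted AAKO livers. No fasted liver reached a fed liver of its genotype. Gbe1 fell by 1.09 ± 0.12 in CTRL livers (2.13-fold, adjusted p 5.03e-09 by limma) and by 1.33 ± 0.12 in AAKO livers (2.52-fold, adjusted p 1.41e-11).

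Ugp2 ran from 4.99 to 5.71 (median 5.39) in fed CTRL and from 3.63 to 4.46 (median 4.34) in fasted CTRL livers. In AAKO livers it ran from 4.58 to 5.64 (median 5.26) when fed and from 4.05 to 4.39 (median 4.17) when fasted. The fed and fasted ranges were again apart in each genotype, and the fasted CTRL minimum of 3.63 was replicate 2. Ugp2 fell by 1.14 ± 0.17 in CTRL livers (2.21-fold, adjusted p 9.91e-07 by limma) and by 1.00 ± 0.17 in AAKO livers (2.00-fold, adjusted p 3.51e-06).

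Pygl, the phosphorylase that releases glucose units, fell with them. Its levels were 6.55 to 7.37 (median 6.86) in fed CTRL and 5.94 to 6.38 (median 6.23) in fasted CTRL livers. They were 6.83 to 7.16 (median 6.94) in fed AAKO and 5.74 to 6.08 (median 5.92) in fasted AAKO livers. Fed and fasted livers did not overlap in either genotype. Pygl fell by 0.74 ± 0.10 in CTRL livers (1.67-fold, adjusted p 1.65e-07 by limma) and by 1.05 ± 0.10 in AAKO livers (2.08-fold, adjusted p 3.23e-11).

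These 3 were the members called between fasted and fed livers, 3 of 8 and all lower, in CTRL livers, where 43.8% of all genes were called and 24.0% were called lower, and 3 of 8 in AAKO livers, where 63.6% were called and 36.1% called lower. Fasted livers lay below all fed livers for these 3 genes in CTRL mice, as for 12.7% of all genes, and in AAKO mice, as for 23.9%. The median log2 difference over the 9 members was -0.28 in CTRL and -0.18 in AAKO livers, and that of all genes -0.05 and -0.10. Without fasted CTRL replicate 2, Gys2 at -0.58 (adjusted p 0.0277 by limma) and Phka2 at 0.31 (adjusted p 0.0206) were called as well in CTRL livers, which made 5 of 8. The share of all genes called without that liver was not computed.

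The same 3 genes were lower in fasted than in CL316243-treated livers, a comparison within experiment 1. Gbe1 fell by 0.83 ± 0.12 in CTRL and 0.78 ± 0.12 in AAKO livers (adjusted p 1.12e-06 and 8.38e-07 by limma), and Pygl by 0.74 ± 0.10 and 0.66 ± 0.10 (adjusted p 2.80e-07 and 5.07e-07). Ugp2 fell by 0.97 ± 0.17 and 0.61 ± 0.17 (adjusted p 2.00e-05 and 0.00194), of which the AAKO value did not pass in wash batch 2 alone (-0.61, adjusted p 0.0721). In each of these 6 comparisons all fasted livers were below, as for 9.72% of all genes in CTRL and 21.0% in AAKO livers. With Gys2 in CTRL and Phka2 in AAKO livers, 4 of 8 members were called in each genotype, all lower when fasted, where 37.1% and 60.0% of all genes were called, 19.3% and 34.0% lower.

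Against fed livers, CL316243 brought smaller differences. In AAKO livers Gbe1 ran from 4.01 to 4.81 (median 4.50) after CL316243 and was lower than fed by 0.55 ± 0.12 (adjusted p 0.000470 by limma). Pygl ran from 6.48 to 6.84 (median 6.54) and was lower by 0.39 ± 0.10 (adjusted p 0.00198). In each gene 1 treated AAKO liver reached the range of the fed ones. These were 2 of 9 members called in AAKO livers, where 31.4% of all genes were called and 15.9% were lower, and wash batch 2 alone gave -0.19 for Gbe1 (adjusted p 0.329) and -0.14 for Pygl (adjusted p 0.605). Without AAKO replicate 6, whose Gbe1 of 4.01 was the lowest of its group, the Gbe1 difference was -0.46 (adjusted p 0.00185) and the Pygl difference -0.37 (adjusted p 0.00553). In CTRL livers limma called 0 of 9, where 23.1% of all genes were called, and 4 of the 9 had an unadjusted p under 0.05. Pygl there had a lowest value of 6.86 and a median of 6.91, a difference of 0.00 ± 0.10 from fed CTRL livers. Ugp2 was lower after CL316243 in AAKO livers by 0.39 ± 0.17 (adjusted p 0.0753), which passed without fed AAKO replicate 6 (-0.50, adjusted p 0.0190) or in the fit with slides as fixed effects (-0.45, adjusted p 0.0263). It was -0.64 in wash batch 1 (adjusted p 0.0321) and -0.04 in wash batch 2 (adjusted p 0.953).

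**Figure D3:**
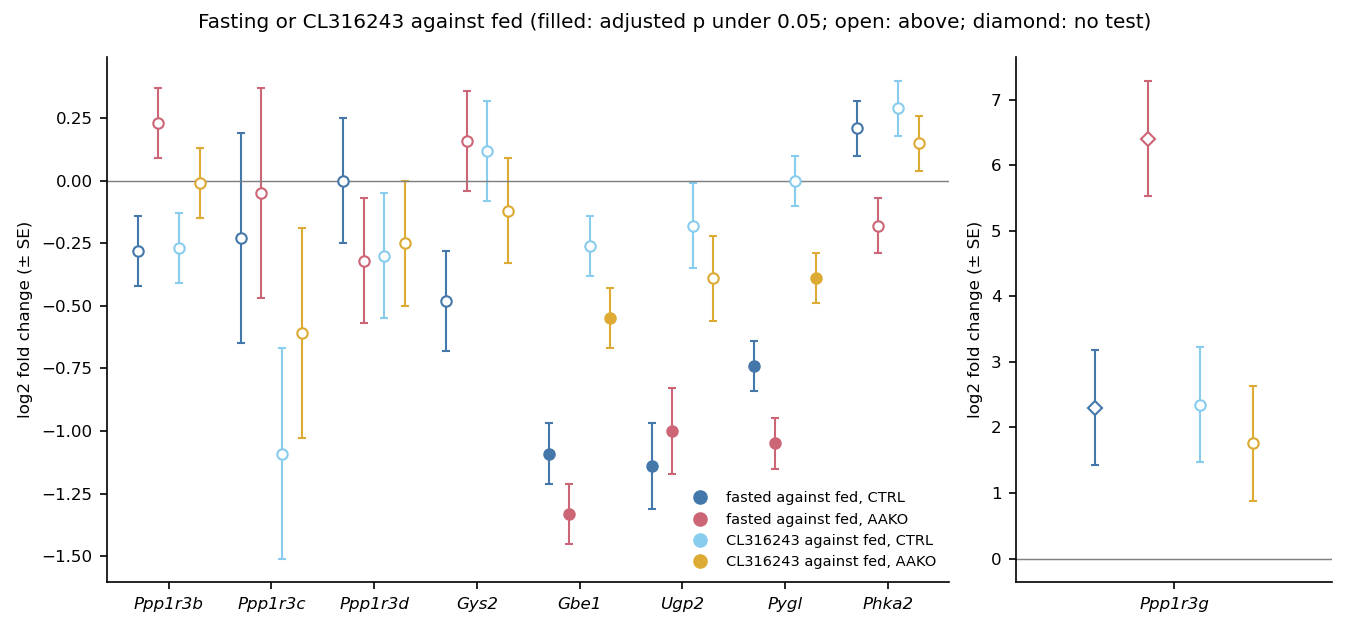
Fasted or CL316243-treated against fed livers in each genotype: points are log2 fold changes with their SE, filled where the adjusted p was under 0.05, with Ppp1r3g on its own axis at the right and its untested fasted values as diamonds. Gbe1, Ugp2 and Pygl are filled and below 0 for fasting in both genotypes, and Gbe1 and Pygl for CL316243 in AAKO livers alone.

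Pygl also differed between genotypes. After CL316243 all AAKO livers, at 6.48 to 6.84, lay below all CTRL livers, at 6.86 and above, the single member without overlap in that comparison, as for 5.67% of all genes in that direction. The AAKO value was lower by 0.35 ± 0.10 (adjusted p 0.00761 by limma) and by 0.27 ± 0.10 when fasted (adjusted p 0.0196), against 0.05 ± 0.10 in the other direction when fed (adjusted p 0.958). Wash batch 1 gave -0.44 after CL316243 and -0.38 when fasted (adjusted p 0.0301 and 0.0359), and wash batch 2 gave -0.16 in both (adjusted p 0.568 and 0.377). The fasted call was lost without fasted AAKO replicate 2 (adjusted p 0.0576) or fasted CTRL replicate 3 (adjusted p 0.0554). The change of the genotype difference from fed livers was -0.32 ± 0.14 on fasting and -0.39 ± 0.14 after CL316243 and passed in neither case (adjusted p 0.0713 and 0.0588). It passed for CL316243 without AAKO CL316243 replicate 3 (adjusted p 0.0204), or fed CTRL replicates 1 (0.0447) or 4 (0.00936), and with the deposited values (0.0137), normexp (0.0328), quantile normalization (0.0310) or slide as a fixed factor (0.0344). It passed for fasting without fasted CTRL replicates 2 (0.0340) or 5 (0.0483), fasted AAKO replicate 5 (0.0477), or fed CTRL replicates 1 (0.0497) or 4 (0.0108), and with slide as a fixed factor (0.0325).

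For Gbe1 and Ugp2 no genotype difference passed. Gbe1 was lower in AAKO livers by 0.17 ± 0.12 when fasted and 0.22 ± 0.12 after CL316243 (adjusted p 0.241 and 0.190 by limma), and Ugp2 by 0.04 ± 0.17 and 0.39 ± 0.17 (adjusted p 0.871 and 0.0839). The CL316243 difference of Ugp2 passed when CTRL replicate 5 of that group was left out (adjusted p 0.0434) or in the fit with slides as fixed effects (adjusted p 0.0423). Of the other Gbe1 probes, A_65_P10159, which like the main probe targets NM_028803, fell by 1.06 ± 0.11 and 1.25 ± 0.11 on fasting in CTRL and AAKO livers. In CTRL livers after CL316243 it was lower than fed by 0.32 ± 0.11 (adjusted p 0.0385), a comparison that the main probe did not pass. The dimmer A_55_P2727654, designed to another transcript of the annotation (ENSMUST00000099628), behaved differently. It fell by 0.77 ± 0.27 on fasting in CTRL livers (adjusted p 0.0176) and by 0.45 ± 0.27 in AAKO livers (adjusted p 0.138), and after CL316243 it was lower in AAKO than in CTRL livers by 0.87 ± 0.27 (adjusted p 0.0163). Fasted against CL316243-treated AAKO livers gave 0.57 ± 0.27 for it (adjusted p 0.0638), against a fall of 0.78 for the main probe.

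Phka2, the liver alpha subunit of phosphorylase kinase, was lower in fasted AAKO livers. It ran from 1.86 to 2.88 (median 2.40) in fasted CTRL and from 1.71 to 2.10 (median 1.95) in fasted AAKO livers. The lowest fasted CTRL value, 1.86, was again replicate 2, and the other 5 lay above every fasted AAKO liver. The gene was lower in AAKO livers by 0.46 ± 0.11 (1.37-fold, adjusted p 0.00124 by limma), by 0.73 in wash batch 1 (adjusted p 0.00145) and by 0.18 in wash batch 2 (adjusted p 0.403), the batch that held fasted CTRL replicate 2. Without that liver the difference was -0.55 (adjusted p 5.86e-05). The genotype by fasting interaction was -0.39 ± 0.16 (adjusted p 0.0626) and passed without that liver (adjusted p 0.00919), without fasted AAKO replicate 4 (adjusted p 0.0398), with quantile normalization (adjusted p 0.0341) or in the fit with slides as fixed effects (adjusted p 0.0424). The gene was also lower in fasted than in CL316243-treated AAKO livers by 0.33 ± 0.11 (adjusted p 0.0135), which did not pass without fasted AAKO replicate 3 (adjusted p 0.0510), with the deposited log2 values (-0.21, adjusted p 0.127) or in wash batch 2 alone (-0.15, adjusted p 0.515).

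All 3 other probes of Phka2 were lower in fasted AAKO than in fasted CTRL livers as well, by 0.60 ± 0.13, 0.80 ± 0.15 and 0.93 ± 0.24 (limma adjusted p 0.000412, 4.41e-05 and 0.00187 for A_52_P671916, A_55_P2596648 and A_52_P657963). The genotype by fasting interaction passed in limma for A_55_P2596648 (-0.84 ± 0.21, adjusted p 0.0025) and A_52_P657963 (-1.22 ± 0.34, adjusted p 0.00608). For A_52_P671916 it did not (-0.46 ± 0.19, adjusted p 0.0593). After CL316243 the probes differed among themselves: A_52_P671916 gave -0.30 ± 0.13 between genotypes (adjusted p 0.108), near the main probe's -0.21 ± 0.11 (adjusted p 0.192), while A_55_P2596648 was lower in AAKO livers by 0.51 ± 0.15 (adjusted p 0.0133). A_52_P657963, designed to the transcript ENSMUST00000146752, ran from 0.02 to 0.72 in CTRL and from -1.59 to 0.00 in AAKO livers after CL316243, without overlap. It was lower there by 1.19 ± 0.24 (adjusted p 0.000439), with a genotype by CL316243 interaction of -1.48 ± 0.34 (adjusted p 0.00419), where the main probe gave -0.14 ± 0.16 (adjusted p 0.674). In CTRL livers this probe rose by 1.25 ± 0.24 on fasting and 0.94 ± 0.24 after CL316243 (adjusted p 8.21e-05 and 0.00464), while the main probe gave 0.21 ± 0.11 and 0.29 ± 0.11 (adjusted p 0.141 and 0.0606). The latter passed with the deposited values (adjusted p 0.0475), slide as a fixed factor (0.0308) or only the groups compared (0.0117). A_55_P2596648 too rose in CTRL livers after CL316243, by 0.72 ± 0.15 (adjusted p 0.000639 by limma), and A_52_P671916 gave 0.24 ± 0.13 (adjusted p 0.204). On fasting in AAKO livers, A_55_P2596648 fell by 0.61 ± 0.15 (adjusted p 0.000644), where no other Phka2 probe passed. In fasted against CL316243-treated AAKO livers, A_52_P671916 and A_55_P2596648 were lower by 0.31 ± 0.13 and 0.79 ± 0.15 (adjusted p 0.0448 and 3.34e-05), the direction of the main probe, and A_52_P657963 was higher by 0.58 ± 0.24 (adjusted p 0.0413), the opposite direction. The probes were placed apart on mm9, at chrX:156967675-156967734 for A_52_P657963 and chrX:157029014-157029073 for the main one.

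A few pairs of members also varied together among the mice of a group, a pattern looked for after the values were seen and given without a test. Over the 36 pairs of members, the correlation of their deviations from group means over 36 arrays ran from -0.503 to 0.742 with a median of 0.0774, and 4 pairs were above 0.5. The share of all pairs of genes above 0.5 was not computed, so this count has no background beside it. Ppp1r3g and Gys2 had the highest, r = 0.742 (Spearman 0.783), with 0.814 and 0.654 in wash batches 1 and 2, 0.711 without the 2 arrays farthest out, and between 0.351 and 0.935 within each of the 6 groups. Gbe1 and Pygl followed with r = 0.733 (Spearman 0.845), 0.872 and 0.556 by wash batch, and 0.607 to 0.910 within the groups. The other 2 were Ugp2 with Pygl (0.537, and 0.412 and 0.643 by wash batch) and Ugp2 with Phka2 (0.533, and 0.295 and 0.710). Within the 6 groups these 2 ran from 0.351 to 0.933 and from -0.00912 to 0.792. Without fasted CTRL replicate 2 they fell below 0.5, to 0.484 and 0.430, and Gys2 with Ugp2 went from 0.422 to 0.558. Ppp1r3g with Gys2 was then 0.730 and Gbe1 with Pygl 0.755. Arrays share their scaling and their wash batch, which such correlations also hold.

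**Figure D4:**
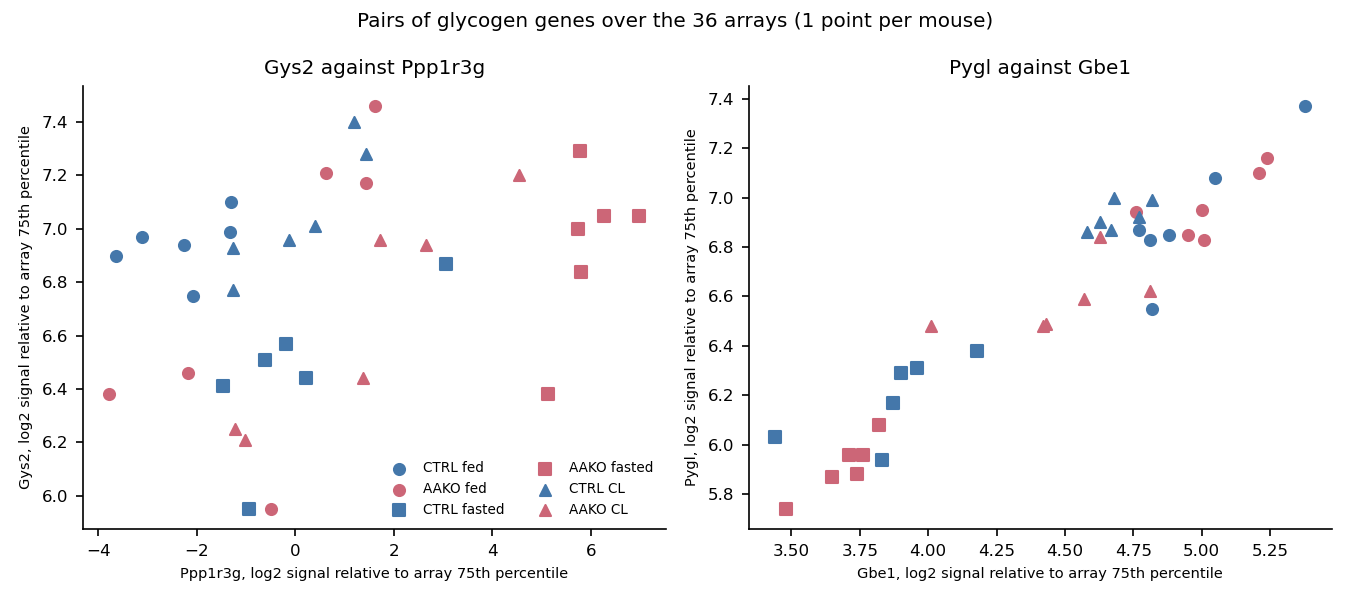
The 2 pairs of members that varied together most: each point is 1 liver, coloured by genotype (blue CTRL, red AAKO) and shaped by condition, on log2 axes with the array's 75th percentile at 0. Gys2 increases with Ppp1r3g inside the groups, though the fasted AAKO livers are shifted to the right, and Pygl increases with Gbe1 inside and between groups.

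The genes most like 3 of the targeting subunits over the 36 arrays were found among the other 24250 tested. For Ppp1r3g they were 5330406M23Rik (r = 0.900), an unnamed transcript of chromosome 6 (0.896) and Rcl1 (0.895), with r = 0.784, 0.743 and 0.568 for deviations from group means. For Ppp1r3b they were an unnamed transcript of chromosome 17 (0.931), the unnamed probe A_55_P2724929 (0.905) and Fdxacb1 (0.900), with 0.946, 0.933 and 0.882 for deviations. For Ppp1r3c they were Ftcd (0.656), Cited2 (0.654) and Rasl11b (0.647), with 0.407, 0.559 and 0.721.

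Of 33 other pathway genes listed, 30 were tested, and none was called between genotypes in fed livers (limma, 0 of 30, with 3 at an unadjusted p under 0.05). When fasted, 9 were higher and 6 lower in AAKO livers, and after CL316243 3 were higher and 10 lower. The median log2 difference of the 30 was 0.14 and -0.07 in those conditions, and that of all genes -0.03 and 0.03. Without CL316243-treated AAKO replicate 6 the calls after CL316243 numbered 11 in place of 13. Of all genes, 49.2% were called when fasted, 22.0% higher and 27.2% lower. After CL316243 24.5% were called, 12.9% higher and 11.6% lower.

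Among synthesis genes in fasted livers, Gys1, the synthase form of muscle and other tissues, was higher in AAKO livers by 1.01 ± 0.20 (2.01-fold, adjusted p 9.73e-05 by limma), and Pgm2 by 1.09 ± 0.16. Pgm1, a phosphoglucomutase, was lower by 0.69 ± 0.10; the array design gives these phosphoglucomutase probes the opposite names, Pgm2 for Pgm1 and Pgm1 for Pgm2. After CL316243 the synthesis list had 0 of 6 higher and 3 lower, where 12.9% and 11.6% of all genes were. Pgm2l1 was lower by 0.98 ± 0.14. Stbd1, counted in this list though it is a glycogen-binding protein of lysosomal breakdown, was lower by 0.98 ± 0.35. Of breakdown genes, Phkb, a regulatory subunit of phosphorylase kinase, was lower by 0.45 ± 0.09 when fasted. Its liver catalytic subunit Phkg2 was higher by 0.36 ± 0.06 and 0.42 ± 0.06. Gaa, the lysosomal glucosidase, was lower by 0.21 ± 0.07 and Phka1, the muscle alpha subunit, higher by 0.29 ± 0.08 after CL316243, a group in which replicate 6 carried muscle markers; their part in it was not tested.

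In the list of phosphatase subunits and kinases, 4 of 10 were higher and 1 lower in fasted AAKO livers, where 22.0% and 27.2% of all genes were. Epm2a, the glycogen phosphatase laforin, was higher by 0.72 ± 0.21 and Ppp1cc, a catalytic subunit of the phosphatase, by 0.29 ± 0.07, while the catalytic subunit Ppp1ca was lower by 0.42 ± 0.06. After CL316243 the direction of Epm2a was the opposite, lower by 0.81 ± 0.21 (adjusted p 0.00542 by limma). Nhlrc1, which encodes the laforin partner malin, was lower by 0.95 ± 0.15 after CL316243, and Prkab1, a glycogen-binding subunit of AMP-activated kinase, was higher by 0.51 ± 0.11. For glucose 6-phosphate, Slc2a2, the liver glucose transporter, was lower in AAKO livers by 1.00 ± 0.26 when fasted and 1.59 ± 0.26 after CL316243. In fasted AAKO livers G6pc3 and Slc37a4, of glucose 6-phosphate release, were higher by 0.34 ± 0.07 and 0.32 ± 0.12, and G6pc3 was lower by 0.22 ± 0.07 after CL316243. G6pc, of the same list, was not called between genotypes in either condition. Its means were 7.32 ± 0.37 (SD) in CTRL and 8.10 ± 0.25 in AAKO livers when fasted, and 6.63 ± 0.43 and 5.88 ± 1.17 after CL316243.

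On fasting 7 of the 30 were higher and 10 lower in CTRL livers, and 14 higher and 12 lower in AAKO livers. Next to these, 43.8% and 63.6% of all genes were called, and 24.0% and 36.1% were called lower. After CL316243 3 were higher and 5 lower in CTRL and 5 higher and 6 lower in AAKO livers, next to 23.1% and 31.4%. The breakdown list had 4 of 8 lower on fasting in each genotype, as Pygl was, next to 24.0% and 36.1% of all genes called lower in CTRL and AAKO livers. It had 1 and 2 higher.

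**Figure D5:**
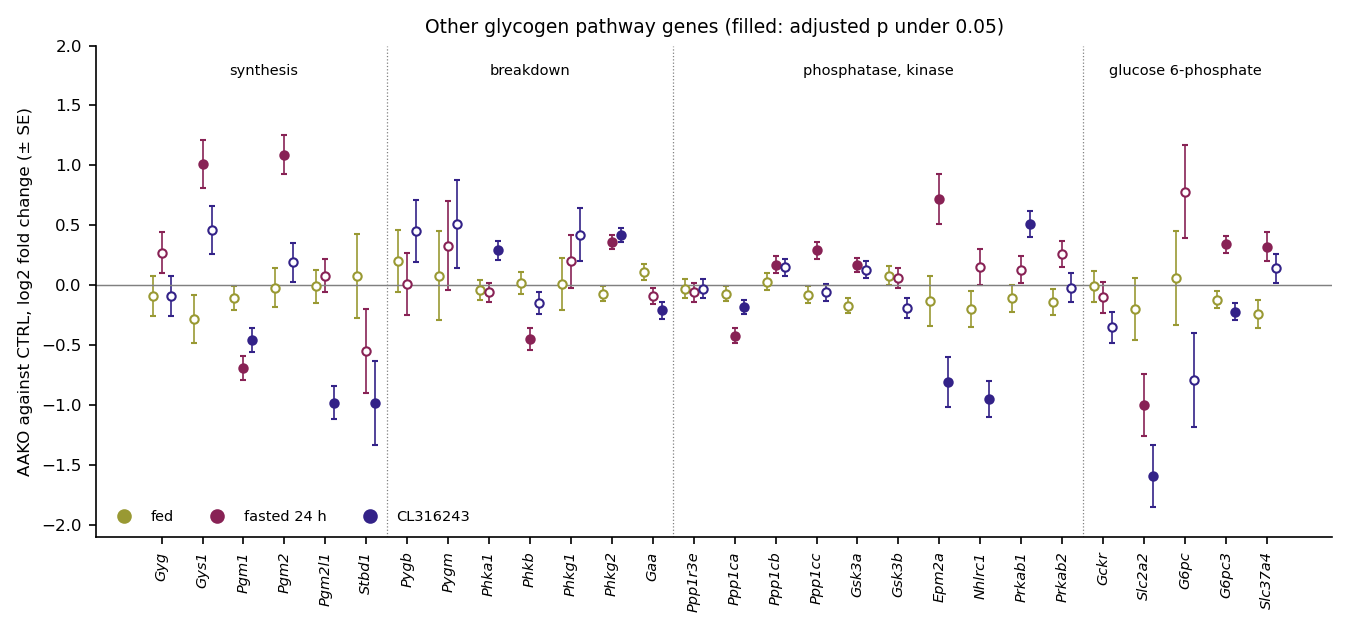
AAKO against CTRL for 28 of the 30 other pathway genes tested, by list: points are log2 fold changes with their SE in fed, fasted and CL316243-treated livers, and filled points passed an adjusted p of 0.05. No fed point is filled, Gys1 and Pgm2 lie above 1 when fasted, and Slc2a2 is lowest at -1.59 after CL316243.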

How the data were processed

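Liver RNA (200 ng per mouse, Cy3) was hybridised to single-colour Agilent arrays. The deposited scanner files hold intensity values, which per the file headers came from Feature Extraction version 10.10.1.1 (Agilent), with background subtracted and no scaling between arrays recorded. The authors also deposited log2 values of 36898 probes, with scale and centring not given in the sources used here. Each of the 36 columns was closest to its own array, columns of a group held identical sorted values, group medians ran from 6.88 to 7.01, and limma is named in the submitters' processing notes without its role. These values served as an alternative. Values here are log2 processed signals less the log2 of each array's 75th percentile, taken over probes other than controls. Of 59305 non-control spots per array, outlying ones were left out (0.127%), none was saturated, and spots of a probe were averaged. Probes were named by the files or, where a RefSeq accession matched (32994 probes), by GRCm38.p6 RefSeq. A gene was its probe with the highest mean, tested if well above background on 5 of 6 arrays of a group.

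All 36 arrays entered 1 limma 3.58.1 fit (R 4.3.3, and version 1.17.8 of data.table) with 6 group means and wash batch, two-sided, Benjamini-Hochberg over 24251 genes, called at an adjusted p under 0.05. Array number limits the precision. The members, lists and motifs were chosen with earlier results of these data known. Named are all 9 members, up to 2 higher and 2 lower called genes per pathway list in the genotype contrasts, and the 3 tested genes most correlated with Ppp1r3g, Ppp1r3b and Ppp1r3c. Alternatives were normexp with an offset of 50, quantile normalization, the deposited log2 values, no filter, slide or replicate blocks, no wash batch, each batch alone, the contrast's groups only, every probe, and each array left out. Of 33 pathway genes, Gyg1 was not matched under that name beside Gyg, and Ppp1r3a and Ppp1r3f did not pass the filter; some pathway genes that the naming rule covers are counted with their lists but not reported singly here.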

Additional observations from a re-analysis of the deposited data

Results flagged for a closer look

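Of 54 member-by-group sets of 6 arrays, 3 had an array far from the rest, its gap to the nearest array a large share of the range of the group, where chance flags about 1 set in 20. Ppp1r3g was 3.07 in fasted CTRL replicate 2, against 0.22 in the next liver. Ugp2 was 3.63 in the same liver, against 4.31 in the next. Ppp1r3b was 7.24 in fasted AAKO replicate 3, against 7.70 in the next.

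Genotype differences of 2 members differed between conditions by an interaction test in limma. That of Ppp1r3b was larger by 0.51 in fasted than in fed livers (adjusted p 0.0443), and that of Gys2 larger by 0.88 in fasted than in CL316243-treated livers (adjusted p 0.0190).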

How the results depend on the processing

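Of the member differences recomputed under 12 alternatives, 1215 kept their direction and side of the threshold, 30 passed it newly, 18 no longer passed and 33 changed sign. The untested Ppp1r3g differences are among the 1215 on another ground. They counted as kept when they moved by less than the SD within groups, whatever their sign. In wash batch 1 alone, 1 member was called between genotypes after CL316243 in place of 2, 0 in place of 1 for the fasting interaction, and 0 in place of 1 for the genotype difference of fasting against CL316243. In wash batch 2 alone, the calls were 1 between fasted genotypes in place of 3, 1 between genotypes after CL316243 in place of 2, 0 for CL316243 against fed AAKO livers in place of 2, 0 for the fasting interaction and 0 for fasting against CL316243; each batch holds fewer samples. For CL316243 against fed CTRL livers, main count 0, the deposited log2 values, every probe tested separately, no wash batch and slide as a fixed factor gave 1, and only the groups compared gave 2. For the CL316243 interaction, main count 0, the deposited values, normexp, quantile, slide as a fixed factor and the replicate block gave 1. For the fasting interaction, main count 1, the deposited values and quantile gave 2, slide as a fixed factor 3, and no filter, no wash batch and only the groups compared 0; the cause was not tested. With each array left out, members called ran from 2 to 3 between genotypes after CL316243, 2 to 4 between fasted genotypes, 0 to 0 between fed genotypes, 2 to 3 and 0 to 2 for CL316243 against fed AAKO and CTRL livers, 3 to 4 and 4 to 4 for fasting against CL316243 in AAKO and CTRL livers, 3 to 4 and 3 to 5 for fasting against feeding, 0 to 1 for the CL316243 interaction, 0 to 4 for the fasting interaction and 1 to 1 for fasting against CL316243 between genotypes.

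The 33 sign changes were of differences that did not pass in either fit. In wash batch 1 alone they were, for the fed genotype difference, Gys2 at 0.02; for the fasted one, Ppp1r3d at -0.31; for CL316243 against fed AAKO livers, Ppp1r3b at 0.03 and Ppp1r3d at 0.09; for fasted against fed AAKO livers, Gys2 at -0.14; for fasting against CL316243 in CTRL livers, Phka2 at 0.03; for the CL316243 interaction, Phka2 at 0.01 and Ppp1r3c at -0.56; and for the fasting interaction, Ppp1r3c at -0.83 and Ugp2 at -0.24. In wash batch 2 alone the genotype difference after CL316243 was 0.06 for Gbe1, the fed one 0.08 for Phka2 and the fasted one 0.24 for Ugp2. There, CL316243 against fed AAKO livers gave 0.09 for Gys2 and 0.08 for Ppp1r3c, fasted against fed AAKO livers 0.93 for Ppp1r3c, and fasting against CL316243 0.13 for Ppp1r3b in CTRL and 0.46 for Ppp1r3d in AAKO livers. The CL316243 interaction there was 0.03 for Gbe1, -0.40 for Ppp1r3d and 0.09 for Ugp2, and the genotype difference of fasting against CL316243 was -0.17 for Gbe1, 0.05 for Phka2 and 0.17 for Ppp1r3d. With quantile normalization Ppp1r3b was 0.02 for CL316243 against fed AAKO livers and 0.03 for fasting against CL316243 in CTRL livers, which was 0.02 with normexp and 0.05 with the deposited values. The deposited values also gave 0.02 for Ppp1r3c in fasted against fed AAKO livers and 0.08 for Ppp1r3d in fasting against CL316243 in AAKO livers. Normexp gave -0.02 for Ppp1r3d between fasted genotypes, and slide as a fixed factor gave 0.03 for Ugp2 there and -0.02 for Ppp1r3c for the fasting interaction. With each array left out, ranges that crossed 0 were -0.05 to 0.12 for Gbe1 in the genotype difference of fasting against CL316243; -0.27 to 0.02 for Gys2 and -0.07 to 0.04 for Ppp1r3b in CL316243 against fed AAKO livers; -0.17 to 0.01 for Phka2 and -0.15 to 0.12 for Ppp1r3b in fasting against CL316243 in CTRL livers, and -0.28 to 0.19 for Ppp1r3d in AAKO livers. They were -0.31 to 0.29 and -0.39 to 0.02 for Ppp1r3c in fasted against fed AAKO and CTRL livers, -0.07 to 0.52 for Ppp1r3c in the fasting interaction, -0.09 to 0.17 for Ppp1r3d in the CL316243 interaction, -0.21 to 0.25 for Ppp1r3d between fasted genotypes and -0.03 to 0.13 for Pygl between fed genotypes. In CTRL livers they were also -0.11 to 0.13 for Ppp1r3d in fasted against fed and -0.07 to 0.09 for Pygl in CL316243 against fed. The untested Ppp1r3g difference of fasting against CL316243 in CTRL livers ran from -0.72 to 0.29.

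Samples with the same replicate number did not deviate together: the mean correlation of their deviations was -0.00106 over 90 pairs and 0.000195 over 450 pairs of different numbers, and 6 of 36 arrays were closest to an array of their own number. The replicate block changed the call of Pygl in the CL316243 interaction alone, to -0.40 (adjusted p 0.0409 by limma). Of all genes, 11922 were called between fasted genotypes (7821 to 18275 over the 12 alternatives), 5952 after CL316243 (1510 to 8668) and 19 between fed genotypes (0 to 35). For fasting the count was 10620 in CTRL (5997 to 16035) and 15424 in AAKO livers (12145 to 23627), for CL316243 5611 (1623 to 8597) and 7625 (2287 to 11399), and for fasting against CL316243 8989 (4551 to 13489) and 14551 (11043 to 22238). For the fasting and CL316243 interactions it was 8160 (3132 to 12479) and 2628 (458 to 3842), and for the genotype difference of fasting against CL316243 7718 (3053 to 11734). Of the other pathway genes, 13 were called between genotypes after CL316243 (5 to 15), 17 for fasting in CTRL livers (9 to 18), and 8 and 11 for CL316243 in CTRL (2 to 9) and AAKO livers (4 to 12). Runs without AAKO CL316243 replicate 6 for the pathway counts were chosen after seeing the data. Member probes were well above background on all arrays. Of 54 group means of member levels, normexp moved 36 by more than their SD, from -3.34 to -1.85 for Ppp1r3d in fed CTRL livers, and for Ppp1r3g in the same livers from -2.29 to -1.47, within its SD; quantile normalization moved none by that much.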
